A study of Mus musculus with 30 samples.

Results

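The genes described here are Mt1 and Mt2, the metallothionein genes measured in these mouse livers, and Mtf1, the gene of the transcription factor that switches metallothioneins on. They were taken by gene symbol, which gave 3 of the 14555 genes listed in the tables of the study. All 3 were listed at each age and passed the filter on low values in each comparison. Mt3 and Mt4, the other mouse metallothionein genes, were not listed in any of the tables used here. The study asked how cadmium given during gestation altered the liver transcriptome of the offspring after birth. Liver RNA from CD-1 mice, an outbred stock, was sequenced in 30 libraries. At postnatal day (PND) 1 there were 4 females exposed to cadmium chloride (CdCl2) at 500 ppb and 4 control females, and at PND21 there were 3 exposed and 3 control females. At PND42 there were 4 exposed and 4 control females, and 4 exposed and 4 control males. The labels name no litters, so p-values measure the spread between these animals, which may include litter mates. The animal tags in the labels share leading numbers across ages and sexes, and what those numbers mark is not stated.

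Metallothioneins are small cysteine-rich proteins that bind zinc, copper and cadmium, store zinc in the newborn liver and protect cells against cadmium. MTF1 is a zinc-finger protein that senses free zinc and binds metal response elements near the start of its target genes, and cadmium acts on it largely by displacing zinc from proteins. In liver, metallothionein transcription also responds to glucocorticoids and to inflammatory signals, so a high level is not specific to a metal. A transcript measured weeks after a gestational dose is a readout of the liver at that time, and tissue cadmium was not analysed here.

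On mouse build GRCm38 (mm10), Mt2 lies on chromosome 8 from 94172664 to 94173568 and Mt1 at 94179082 to 94180327, both on the plus strand and 5513 bases apart. Mtf1 lies on chromosome 4 from 124802104 to 124849800, also on the plus strand. All are protein-coding, and the counts are over their exons, which cover 1246 bases of Mt1, 588 bases of Mt2 and 8907 bases of Mtf1 in GENCODE vM21. The sequence from the start of the RefSeq promoter window to the start codon was searched for the core of the metal response element, written as TGCACNC or TGCGCNC and read on both strands. Mt1 held 5 such cores and Mt2 held 7, and the sites closest to the start codon are shown because they are the letters that MTF1 is known to read. Each line gives a 27-base stretch in GRCm38.p6, 5′ to 3′ on the strand that carries the core, with the core in capitals.
Mt1 site 2, core at 94179091 to 94179097, plus strand: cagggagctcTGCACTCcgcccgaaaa
Mt1 site 3, core at 94179109 to 94179115, plus strand: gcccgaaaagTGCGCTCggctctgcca
Mt1 site 4, core at 94179173 to 94179179, minus strand: gcaaagggttTGCACCCagcaggcggt
Mt1 site 5, core at 94179187 to 94179193, plus strand: gcaaacccttTGCGCCCggactcgtcc
Mt2 site 5, core at 94172676 to 94172682, minus strand: ccccgccgccTGCACACgccctttttc
Mt2 site 6, core at 94172695 to 94172701, minus strand: gaaggcaccaTGCACGCgcccccgccg
Mt2 site 7, core at 94172729 to 94172735, plus strand: gcggagctttTGCGCTCgacccaatac
These 7 cores lie inside the annotated first exons, whose starts are upstream of the single TATAAA of each gene, at 101 bases before the start codon in Mt1 and 95 bases in Mt2. The outermost cores shown are 220 bases before the start codon in Mt1 and 172 bases in Mt2. The stretches printed for sites 4 and 5 of Mt1 are on opposite strands and overlap.

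In the RefSeq promoter windows of 300 bases, Mt1 held 3 cores, Mt2 held 4 and Mtf1 held 0. Of 32851 such windows 25.7% held at least 1 core, 1.97% at least 3 and 0.517% at least 4. Among the first 180 bases of 134930 GENCODE transcripts, 0.362% held at least 3 cores and 0.0593% at least 4, against 4 in Mt1 and 3 in Mt2. A core is a match of letters and no binding was measured. In 4 other known MTF1 targets with such a window, there were 2 cores at Slc30a1, 2 at Selenow, 0 at both starts of Slc39a10 and 3 at 1 of the 2 starts of Csrp1. Ndrg1 and Gclc had no window under their symbol, and further targets were not searched.

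Recovered reads over the listed genes ran from 22027514 to 40088312 per library. Mt1 had at least 536 reads in each library and Mtf1 had 479 to 1159 reads, and the fewest Mt2 reads were in the PND42 control male with the lowest Mt1. Levels below are normalised read counts, made from the deposited log2 values, and differences are log2 differences with standard errors (SE). PND1 and PND21 libraries were scaled together and PND42 libraries apart. The liver label was checked with 6 hepatocyte markers, of which 5 were listed, and all 5 were above 0 in every group. Some libraries stand apart. Among females at PND42, mitochondrial reads made up 27.6% ± 6.29 in the exposed group and 8.49% ± 3.15 in the control group (SD, n = 4 each). The mean log2 level of the nuclear RNAs Malat1 and Neat1 was higher in every exposed library than in any control library there. In 1 PND42 control female, called unnumbered here, the column could be tied to its group but not to an animal, and the same holds for 3 PND42 control males called unnumbered a, b and c.

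Newborn livers held the highest group means of both metallothioneins, and exposure moved none of the 3 genes past the test at PND1. Mt1 had 37295, 29999, 24061 and 44586 normalised counts in exposed females, against 27529, 37041, 37542 and 45308 in control females. The groups overlapped, and the highest library was a control and the lowest an exposed one. The log2 difference of Mt1 was -0.13 ± 0.22 SE (95% interval -0.61 to 0.35, limma, Benjamini-Hochberg adjusted p = 0.80). Mt2 had 21778, 19025, 15298 and 27871 normalised counts in exposed females, against 20079, 24143, 27640 and 30291 in control females. Exposed replicates 2 and 3 lay below every control in Mt2, and the difference was -0.30 ± 0.20 (interval -0.74 to 0.14, limma adjusted p = 0.50).

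Mtf1 at PND1 had 750, 676, 615 and 752 normalised counts in exposed females, against 589, 590, 659 and 634 in control females. In 3 of 4 exposed livers Mtf1 was above every control. Its log2 difference was 0.17 ± 0.11 (interval -0.07 to 0.42, limma adjusted p = 0.48). The limma fit at this age passed 0% of all 14059 genes tested, while 2039 were under 0.05 before adjustment, so 0 of 3 is no result about these genes. The authors' deposited table gave adjusted p values of 0.89 for Mt1, 0.76 for Mt2 and 0.56 for Mtf1 at PND1, where 72 of the 6790 genes with an adjusted p passed. Markers of sinusoidal endothelium, the lining cells of liver capillaries, were all listed (4 of 4), with 3 higher in mean and 0 called. They summed to 7778 to 8971 normalised counts in exposed and 5968 to 6574 in control livers, without overlap. The share of all genes that separated these groups was not counted, so this is no result about these cells. Sums of the other measured cell type lists overlapped, though all 7 listed erythroid markers had a higher mean (median 0.40, 0 called). The part of these markers in the differences of the 3 genes was not tested.

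**Figure D1:**
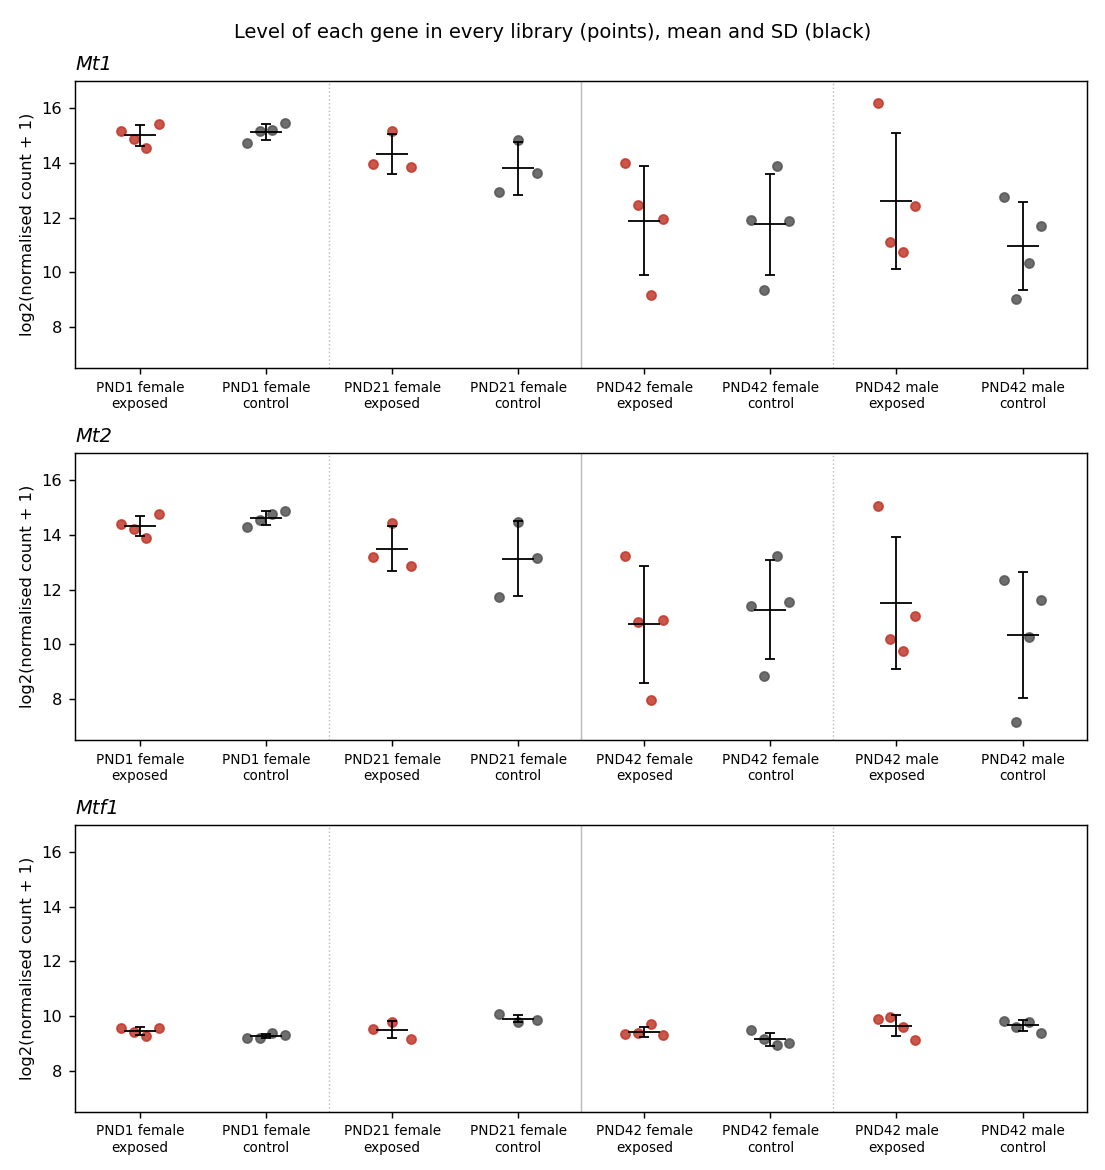
Levels of Mt1, Mt2 and Mtf1 on the log2(normalised count + 1) axis in the 30 libraries, with exposed (red) left of control (grey) in each pair of groups and the mean and SD in black. Mt1 and Mt2 lie close together within the PND1 groups and spread widely within the PND42 groups, while Mtf1 stays between 8.94 and 10.06 in all libraries. The solid vertical line separates libraries that were scaled apart.

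At PND21 the order of the metallothionein means was the reverse of that at PND1, again within the spread of the animals. Mt1 had 16168, 37096 and 14942 normalised counts in exposed females, against 7848, 29546 and 12885 in control females. A single animal was high in each group, exposed replicate 2 and control replicate 2. The log2 difference of Mt1 was 0.53 ± 0.53 (interval -0.69 to 1.74, limma adjusted p = 0.74). Mt2 had 9331, 21911 and 7389 normalised counts in exposed females, against 3428, 22948 and 9104 in control females. Its difference was 0.36 ± 0.71 (interval -1.33 to 2.04, limma adjusted p = 0.88), and it took the other sign without exposed replicate 2 (-0.11) or without control replicate 1 (-0.33).

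Mtf1 at PND21 had 744, 880 and 573 normalised counts in exposed females, against 1069, 888 and 927 in control females. All 3 exposed livers lay below all 3 controls, with the highest exposed and the lowest control library nearly level. Full separation is not rare with 3 animals a side, and the share of all genes that showed it was not counted. The log2 difference was -0.41 ± 0.20 (interval -0.86 to 0.04), with an unadjusted p of 0.071 and an adjusted p of 0.53 in limma. Limma called 0.036% of 13886 genes at this age, 0.0288% higher and 0.0072% lower, and none of the 3 genes. The authors' deposited table gave a log2 fold change of -0.39 for Mtf1 with p = 0.0218 and adjusted p = 0.191, so it did not pass there either, while 446 of 14235 genes did. That table put Mt1 at an adjusted p of 0.64 and Mt2 at 0.94.

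At PND42 the metallothioneins differed more between animals of the same group than between exposed and control means, and in females far more. In females, Mt1 had 16344, 5598, 581 and 3984 normalised counts in exposed livers, against 3866, 656 and 15135 in control replicates 2, 3 and 4 and 3769 in the unnumbered control. The ranges of the 2 groups nearly coincide, with 1 very low and 1 high animal in each. The log2 difference of Mt1 was 0.14 ± 1.40 (interval -2.89 to 3.17, limma adjusted p = 0.95). Mt2 had 9595.5, 1780.5, 250 and 1908 normalised counts in exposed females, against 2716, 455, 9591 and 3002 in controls in the same order. Its difference was -0.53 ± 1.52 (interval -3.82 to 2.76, limma adjusted p = 0.81). Leaving out single animals turned the sign of Mt1 (-0.66 to 1.04) and of Mt2 (-1.37 to 0.39), so these animals give no direction, and the absence of a difference is not shown.

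Mtf1 in PND42 females had 647, 665, 834 and 632 normalised counts in exposed livers, against 712, 577, 489 and 519 in controls. Exposed replicate 3 had the highest Mtf1 and the lowest Mt1 and Mt2 of its group. The log2 difference of Mtf1 was 0.28 ± 0.19 (interval -0.11 to 0.67, limma adjusted p = 0.25). This comparison called 40.2% of the 13091 genes tested, 18.9% higher and 21.4% lower, and none of these 3 genes.

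In PND42 males 1 exposed animal carried the highest metallothionein level of the series, with 0.347% of its reads from Mt1 and Mt2. Mt1 had 75232.5, 2239, 1706 and 5498 normalised counts in exposed males, against 6978 in control replicate 1 and 524, 1311 and 3357 in unnumbered controls a, b and c. Exposed replicate 1 was above every other library, and the other 3 exposed males lay within the range of the controls. The log2 difference of Mt1 was 1.65 ± 1.40 (interval -1.38 to 4.68, limma adjusted p = 0.68), and it was 0.46 without that animal. Mt2 had 34195, 1172, 864 and 2093 normalised counts in exposed males, against 5156, 142, 1218 and 3158 in controls. Its difference was 1.17 ± 1.52 (interval -2.12 to 4.46, limma adjusted p = 0.78), and -0.01 without exposed replicate 1.

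Mtf1 in PND42 males had 942, 1004, 771 and 553 normalised counts in exposed livers, against 911, 774, 888 and 670 in controls. The groups overlapped and their means were almost equal, at 818 ± 202 and 811 ± 112 (SD, n = 4 each). The log2 difference was -0.01 ± 0.19 (interval -0.41 to 0.38, limma adjusted p = 0.98). None of the 3 genes passed in males, where limma passed 0% of 13091 genes and 932 were under 0.05 before adjustment.

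**Figure D2:**
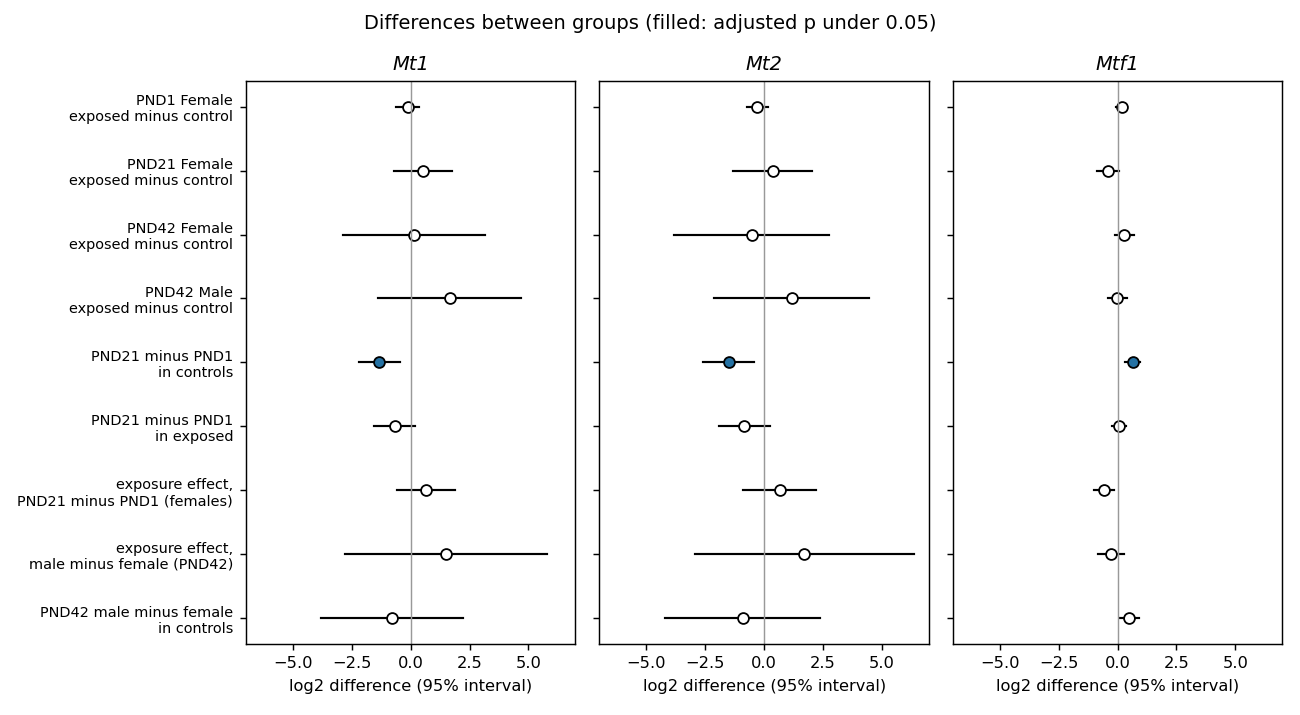
Log2 differences (points) with 95% intervals (lines) of Mt1, Mt2 and Mtf1 in 9 comparisons, from limma fits over all genes. Filled points passed an adjusted p under 0.05, which only the 3 genes in PND21 against PND1 controls did, and the intervals of Mt1 and Mt2 at PND42 are several log2 units wide.

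Between birth and weaning the metallothioneins fell and their regulator rose in control livers. Mt1 averaged 16760 ± 11356 normalised counts in PND21 controls (n = 3) and 36855 ± 7278 in PND1 controls (SD, n = 4), a log2 difference of -1.33 ± 0.41 (interval -2.20 to -0.46, limma adjusted p = 0.0119). Mt2 averaged 11827 ± 10041 in PND21 controls and 25538 ± 4425 in PND1 controls, a difference of -1.496 ± 0.51 (interval -2.58 to -0.41, limma adjusted p = 0.0215). In both genes 2 of the 3 PND21 controls were below every PND1 control, and control replicate 2 at PND21 stayed within the newborn range. Mtf1 averaged 961 ± 95.6 in PND21 controls and 618 ± 34.5 in PND1 controls, with all 3 above all 4, a difference of 0.63 ± 0.15 (limma adjusted p = 0.00186).

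Those 3 of 3 calls stand against a background in which 56% of 14259 genes were called between these ages, 27.7% higher and 28.3% lower, so a change with age is common here. The metallothionein calls rested on single animals. Without PND21 control replicate 1 the difference was -0.90 for Mt1 (limma adjusted p = 0.0763) and -0.80 for Mt2 (limma adjusted p = 0.13), and without PND21 control replicate 3 the Mt2 call ended at an adjusted p of 0.0518 in limma. Under scaling by total reads, which moved the median of all genes to -0.50, Mtf1 differed by 0.12 (limma adjusted p = 0.569) while Mt1 (-1.85) and Mt2 (-2.01) were still lower. Red cell precursors are plentiful in newborn mouse liver, and all 7 listed erythroid markers fell with age in controls, with a median of -3.27 and sums of 27537 to 85911 in PND21 and 228300 to 374300 in PND1 controls. All 5 listed hepatocyte markers rose, with a median of 1.12 and sums of 2518300 to 4826900 in PND21 and 1230900 to 2080100 in PND1 controls. Fewer cells of a type and less RNA per cell cannot be told apart in bulk tissue, and the part of these markers in the metallothionein difference was not tested.

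In exposed livers the same age comparison passed for none of the 3 genes. Mt1 differed by -0.67 ± 0.41 (limma adjusted p = 0.19), with 22735 ± 12452 normalised counts in PND21 exposed (n = 3) and 33985 ± 8902 in PND1 exposed livers (SD, n = 4). Mt2 differed by -0.84 ± 0.51 (limma adjusted p = 0.19). Without PND21 exposed replicate 2, Mt1 differed by -1.09 and passed (limma adjusted p = 0.047). Mtf1 differed by 0.05 ± 0.15 (limma adjusted p = 0.80), and in this comparison 46.9% of all genes were called, 22.9% higher and 24% lower. Whether exposure changed the course with age was tested directly as the exposure effect at PND21 minus that at PND1. That contrast was -0.58 ± 0.21 for Mtf1 (interval -1.02 to -0.14), with an unadjusted p of 0.0131 and an adjusted p of 0.433, and 0.66 ± 0.57 for Mt1 and 0.66 ± 0.71 for Mt2 (limma adjusted p = 0.74 and 0.79). It called 0.014% of all genes, and none of these 3.

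Sex was compared at PND42. In controls, Mtf1 averaged 811 ± 112 normalised counts in males and 574 ± 98.8 in females (SD, n = 4 each), with 3 of 4 males above every female. The log2 difference was 0.50 ± 0.19 (interval 0.11 to 0.90), with an unadjusted p of 0.0157 and an adjusted p of 0.114, where 6.93% of genes were called, 4.58% higher and 2.35% lower. Mt1 differed by -0.79 ± 1.40 and Mt2 by -0.91 ± 1.52 between control males and females, inside the spread of the animals (limma adjusted p = 0.79 and 0.77). The exposure effect in males minus that in females was 1.52 ± 1.98 for Mt1, 1.70 ± 2.15 for Mt2 and -0.29 ± 0.27 for Mtf1. None of the 3 passed (lowest limma adjusted p = 0.521), while 7.91% of all genes did, 4.07% higher in males and 3.84% lower.

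Mt1 and Mt2 were among the most variable genes between animals of the same group at PND42. Within groups at PND42 the standard deviation of Mt1 was 1.93 log2 units in females, the 40th largest of 10560 genes, and 2.10 in males, the 36th largest of 10295. Mt2 reached 1.99 in females and 2.36 in males, where 99.8% of genes had a smaller value. The median gene had 0.24 in females and 0.35 in males. Highest and lowest animals of a group differed 28.1-fold in Mt1 among exposed females, 23.1-fold among control females, 44.1-fold among exposed males and 13.3-fold among control males. Both exposure groups and both sexes therefore held low and high animals.

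At younger ages the same genes varied less. The within-group standard deviation of Mt1 was 0.34 at PND1 and 0.85 at PND21, and that of Mt2 was 0.31 and 1.13. At PND1 80.2% of genes varied less than Mt1, and at PND21 96.9% did. Mtf1 never stood out, with 0.11 at PND1, 0.24 at PND21, 0.21 in PND42 females and 0.31 in PND42 males, below the median gene each time. PND42 libraries were scaled and read apart from the others, so age and table cannot be told apart in the rise of the spread to PND42, but PND1 and PND21 shared a lane and a scaling.

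**Figure D3:**
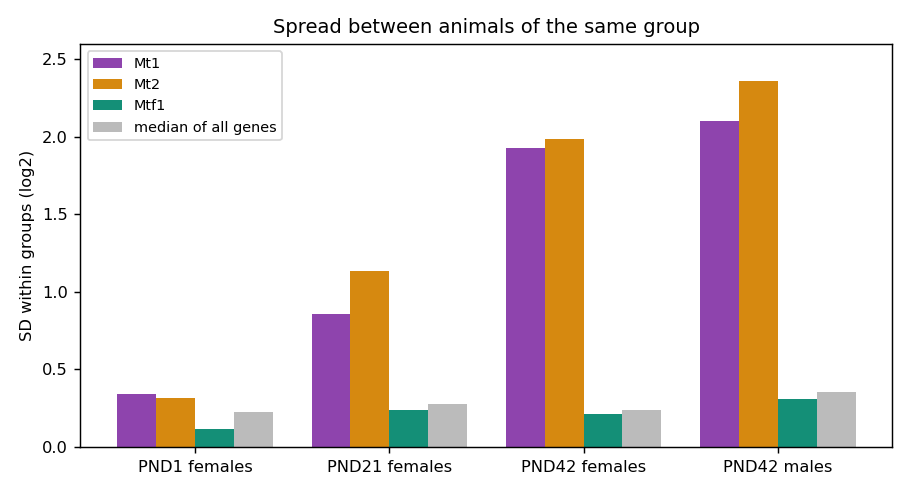
Standard deviation within groups (log2 units) of Mt1, Mt2 and Mtf1 and of the median gene, pooled over exposed and control animals at each age and sex. The bars of Mt1 and Mt2 reach 1.93 to 2.36 at PND42, where the median gene has 0.24 to 0.35, and those of Mtf1 are below the median gene throughout.

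Across tables, levels were set side by side as RPM (the reads of a gene per 1e6 reads of the library), which does not use the separate scalings. Mt1 was highest in PND1 livers (1534 ± 404 in exposed and 1614 ± 381 in control females, SD). Its PND21 means were 830 ± 499 in exposed and 510 ± 348 in control animals, and its means at PND42 were 223 ± 205 in exposed and 203 ± 218 in control females, and 666 ± 1148 in exposed and 81.6 ± 80.4 in control males. The order of means was PND1 control, PND1 exposed, PND21 exposed, PND42 exposed males, PND21 control, PND42 exposed females, PND42 control females and PND42 control males, and the ranges of each neighbouring pair overlapped. Without replicate 1 the mean of PND42 exposed males was 92.4 RPM, below that of PND42 control females. Together Mt1 and Mt2 took 0.248% of reads in PND1 exposed and 0.273% in PND1 control livers, and 0.0967% in PND42 exposed males (0.0132% without replicate 1) and 0.0146% in PND42 control males. Group means of Mtf1 were closer, between 20.1 RPM in PND42 control females and 31.6 in PND1 exposed females. Per kilobase of spliced transcript (0.549 for Mt1 and 0.511 for Mt2), PND1 exposed livers had 2794 RPM of Mt1 and 1851 of Mt2. Per kilobase of merged exons the order turned round, with 1231 for Mt1 and 1609 for Mt2, so these data do not fix which of them was the more abundant. Mtf1 had 3.54 RPM per kilobase of merged exons in the same livers, far below both on either length.

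Mt1 and Mt2 moved together from animal to animal. After removal of each group's mean, their log2 levels correlated with Pearson r = 0.976 and Spearman rho = 0.963 over 30 libraries (two-sided permutation test, 100000 permutations within groups, p = 1e-05 for each, the smallest they can give, adjusted p = 0.00021 over 21 relations). Without the 2 libraries farthest from the median of Mt1, PND42 exposed male replicate 1 and PND42 exposed female replicate 3, r was 0.961. It was 0.974 in the 14 libraries of PND1 and PND21 and 0.977 in the 16 of PND42. Values within a library share its scaling, and with scaling by total reads r was 0.975. The regulator's transcript did not follow them, with r = -0.05 between Mtf1 and Mt1 (permutation p = 0.865) and -0.03 between Mtf1 and Mt2 (permutation p = 0.911) over 30 libraries. Among the 8 PND1 females alone Mtf1 correlated with Mt2 at r = 0.877 (two-sided exact permutation within groups, p = 0.0156, adjusted 0.0469) and rho = 0.881 (adjusted 0.0521). Without the 2 libraries farthest from the median of Mt2, r was 0.774 (exact permutation p = 0.104), where the 6 libraries left allow few permutations. Mtf1 and Mt1 gave r = 0.838 (exact permutation p = 0.0295, adjusted 0.0689) and rho = 0.905 (adjusted 0.0521) there, and r = 0.649 without 2 libraries. Over the 14 libraries of PND1 and PND21 Mtf1 and Mt2 had r = 0.212 (permutation p = 0.575), and 0.895 without control replicates 1 and 2 of PND21, the 2 farthest from the median of Mt2. In the 8 PND42 females r was -0.58 (exact permutation p = 0.134).

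**Figure D4:**
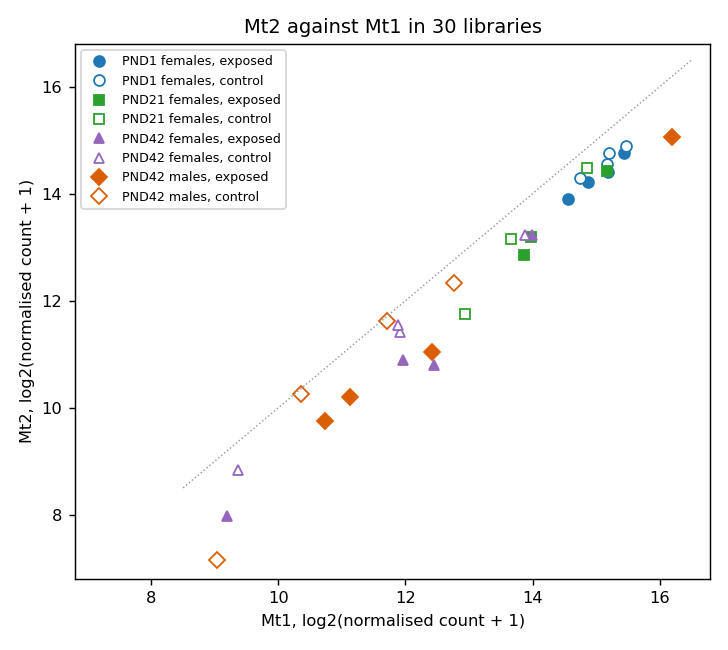
Mt2 against Mt1 on log2(normalised count + 1) axes in 30 libraries, with exposed animals as filled and control animals as open symbols and the dotted line where both would be equal. The points run in a narrow band from 9.04 to 16.20 on the Mt1 axis, and the 4 exposed PND42 females lie farther below the dotted line than the 4 control females.

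The balance of the pair was less constant than this correlation makes it appear. The log2 level of Mt2 minus that of Mt1 does not depend on the scaling of a library. It is in read counts, not per length, so only its changes between libraries can be read. At PND1 it averaged -0.69 ± 0.06 in exposed and -0.52 ± 0.09 in control females (SD, n = 4 each), and the groups did not overlap. At PND21 it averaged -0.86 ± 0.14 in exposed and -0.69 ± 0.45 in control females (SD, n = 3 each), where control replicate 1 (-1.19) was lowest and the groups overlapped. In PND42 females it averaged -1.17 ± 0.37 in exposed and -0.51 ± 0.14 in control livers, again without overlap, so exposed livers had 2.32 ± 0.61 reads of Mt1 per read of Mt2 and control livers 1.42 ± 0.13. In PND42 males it averaged -1.11 ± 0.21 in exposed and -0.63 ± 0.85 in control livers. There 3 of 4 controls were above every exposed male and unnumbered control a was the lowest of all, at -1.88. These values are a description and were not tested, since the ratio was examined with the values known. How often other gene pairs separate in these groups was not counted, and in PND42 females 40.2% of all genes were called.

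RNA measures were set beside this balance, and they went with it in some groups only. The mean log2 level of Malat1 and Neat1, long RNAs kept in the nucleus, was 15.65 ± 0.18 in exposed and 13.81 ± 0.59 in control PND42 females, without overlap. The control animals with the lowest balance at PND21 (replicate 1) and in PND42 males (unnumbered a) also had the highest Malat1 and Neat1 of their groups, 15.07 and 15.35. In all 4 control groups the animal with the lowest balance was the one with the highest Malat1 and Neat1, and in 0 of 4 exposed groups. At PND1 the Malat1 and Neat1 means overlapped, at 14.62 ± 0.16 in exposed and 14.07 ± 0.76 in control livers. Mt2 shares 73.5% of its exon bases with Gm45774, an antisense gene, and 18.4% of its stretches of 125 bases, the read length, recur there on the opposite strand, against 0% for Mt1. Gm45774 itself averaged 23.1 ± 6.68 normalised counts in PND1 exposed and 21.0 ± 6.39 in control livers, small beside Mt2. It was listed at PND1 and PND21 and is not analysed at PND42. No source used here says whether strand was used in counting, so reads of the overlap cannot be assigned with certainty. The part of nuclear RNA, of mitochondrial reads or of the antisense gene in the balance was not tested.

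**Figure D5:**
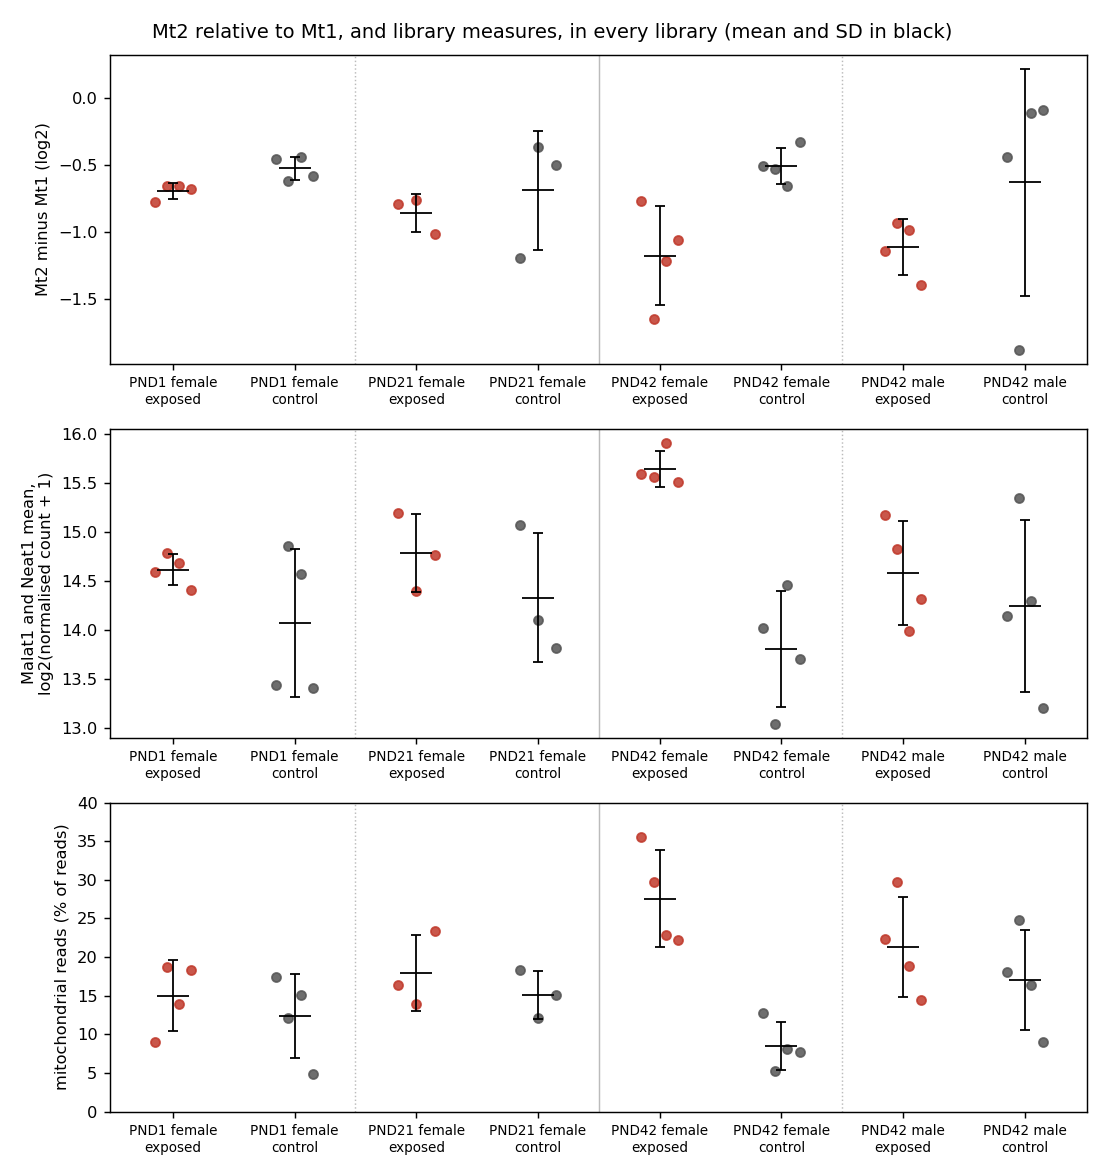
Log2 level of Mt2 minus Mt1 (top), mean log2 level of Malat1 and Neat1 (middle) and mitochondrial share of reads in percent (bottom) in 30 libraries, exposed (red) left of control (grey), with mean and SD in black. In PND42 females all 3 measures separate exposed from control animals, and the lowest control points of the top panel at PND21 and in PND42 males are the highest of their groups in the middle panel.

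Other known MTF1 targets were followed as a list of 6 genes, all measured, of which Gclc is also in the thiol defence list and Slc30a1 and Slc39a10 in the transporter list below. At PND1 0 of 6 were called and 1 of 6 had a higher mean in exposed livers, with a median log2 difference of -0.20 beside -0.01 for all genes. The members of lowest p were Ndrg1, a stress-responsive gene (-0.70 ± 0.25), and Gclc, the catalytic subunit of glutathione synthesis (0.25 ± 0.12), with adjusted p of 0.30 and 0.36 in limma. At PND21 0 of 6 were called and 4 had a higher mean (median 0.27), with Csrp1, a LIM-domain protein (1.38 ± 0.31, limma adjusted p = 0.34), and Ndrg1 (1.79 ± 0.71, limma adjusted p = 0.51) of lowest p. The zinc exporter Slc30a1, the classic MTF1 target beside the metallothioneins, differed by -0.38 ± 0.19 at PND1 and -0.15 ± 0.44 at PND21. The zinc importer Slc39a10, which MTF1 is known to repress, differed by -0.16 ± 0.26 and 0.30 ± 0.20 at these ages. None of these values passed the test.

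In PND42 females 4 of 6 targets fell, where 21.4% of all genes did, and the median was -1.14 beside 0.00 for all genes. Slc30a1 averaged 397 ± 55.9 normalised counts in exposed and 1184 ± 117 in control females (SD, n = 4 each), a log2 difference of -1.58 ± 0.22 (limma adjusted p = 6.15e-05). Csrp1 averaged 93.8 ± 21.2 in exposed and 284 ± 64.3 in control females (-1.59 ± 0.28, limma adjusted p = 0.000353). The selenoprotein gene Selenow (-1.41 ± 0.34) and Ndrg1 (-0.87 ± 0.34) also passed, and Gclc (-0.33 ± 0.25) and Slc39a10 (-0.22 ± 0.31) did not. Under trimmed-mean or total-read scaling 3 of the 6 passed, all lower, and Ndrg1 lost its call without any of 6 of the 8 female libraries in turn. These changes accompanied the rise in mitochondrial reads and in Malat1 and Neat1 given above, and hepatocyte markers summed to 1340000 to 2375400 in exposed and 2804700 to 4100500 in control females. Their part was not tested.

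In PND42 males 0 of 6 targets were called (median 0.07). Slc30a1 averaged 751 ± 226 in exposed and 934 ± 295 in control males, and Csrp1 149.26 ± 34.0 in exposed and 114 ± 44.0 in control males. The exposure effect in males minus that in females passed for Csrp1 (2.04 ± 0.40, limma adjusted p = 0.00767) and Slc30a1 (1.27 ± 0.31, limma adjusted p = 0.0220), 2 of 6 where 4.07% of all genes were called higher. With age in controls Gclc rose by 1.35, and Csrp1 (-2.99 ± 0.26) and Ndrg1 (-3.67 ± 0.53) fell, while Slc30a1 (-0.46 ± 0.34) did not pass. Under total-read scaling 4 of 6 were lower with age and Slc30a1 was among them (-0.97, limma adjusted p = 0.0233).

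Zinc and cadmium carriers were described as a list of 26 transporter genes, of which 22 were measured at PND42. In PND42 females 8 of 22 fell and 0 rose, where 21.4% of all genes fell and 18.9% rose, and 1 rose when the males left the fit. Those of lowest p were the zinc importer Slc39a4 (-2.01 ± 0.21), Slc39a8, an importer that also carries cadmium (-1.60 ± 0.19), Slc30a1 and the iron exporter Slc40a1 (-1.502 ± 0.21), and the median was -0.40. In males 0 of 22 were called, and the exposure effect differed between sexes in 5 of 22, all higher in males, where 4.07% of all genes were. At PND1 (21 measured) and PND21 (22 measured) 0 were called, with medians of -0.16 and -0.20 and Slc39a4 the gene of lowest p each time (-0.57 ± 0.17 and -0.65 ± 0.18, limma adjusted p = 0.26 and 0.39). With age in controls 7 of 22 rose and 4 fell, close to or below the shares of all genes (27.7% and 28.3%). Slc39a2 (3.62 ± 0.38) and Slc39a4 (1.13 ± 0.18) were higher at PND21, and Slc39a5 (-2.96 ± 0.33) and Slc39a6 (-1.999 ± 0.23) lower. Under total-read scaling those counts were 4 higher and 9 lower.

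Glucocorticoid-responsive genes mostly rose with age in controls, where 27.7% of all genes rose and 28.3% fell. The part of glucocorticoids in the metallothionein levels was not tested. Of 12, 10 rose and 0 fell in PND21 against PND1 controls (median 1.79), and 7 to 9 rose with single libraries left out. Under total-read scaling 7 rose and 1 fell. Those that rose included Tsc22d3 (3.73 ± 0.28), Zbtb16 (3.52 ± 0.61), Klf9 (1.55 ± 0.24) and the receptor gene Nr3c1 (1.00 ± 0.17). Acute phase genes, made by the liver in inflammation, rose in 12 of 20 (median 0.84), or 9 higher and 6 lower under total-read scaling, with lowest p for Orm1 (7.57 ± 0.34), Orm2 (7.22 ± 0.55), Saa1 (6.76 ± 0.37) and Saa4 (4.40 ± 0.24). In PND42 females 9 of 20 acute phase genes fell with exposure and 0 rose, where 21.4% of all genes fell and 18.9% rose, and 14 fell and 2 rose when the males left the fit. Those of lowest p were the fibrinogen chains Fgg (-2.27 ± 0.33) and Fgb (-1.79 ± 0.26), Itih4 (-1.28 ± 0.25) and Apcs (-1.79 ± 0.35). Of the 12 glucocorticoid genes 1 rose (Klf9, 1.23 ± 0.40) and 1 fell (Ddit4, -1.61 ± 0.39) there.

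Genes of thiol defence and heat shock, known to respond to cadmium itself, were not called at PND1, PND21 or in PND42 males, as was true of nearly all genes (0%, 0.036% and 0% called). At PND21 all 8 measured heat shock genes had a lower mean in exposed livers (median -0.99), with Hspa1b (-1.58 ± 0.22, limma adjusted p = 0.10) and Dnajb1 (-1.03 ± 0.17, limma adjusted p = 0.22) of lowest p. In PND42 females, where 21.4% of all genes fell and 18.9% rose, 3 of 9 heat shock genes fell, the chaperones Hspa8 (-1.77 ± 0.47), Dnajb1 (-1.22 ± 0.41) and Hspa1b (-1.58 ± 0.61), and the factor gene Hsf1 rose (0.49 ± 0.17). Of 11 thiol defence genes 3 fell there, Hmox1 (-2.09 ± 0.28), Gsr (-0.81 ± 0.17) and Gclm (-0.88 ± 0.22), and Nfe2l2, the gene of the regulator NRF2, rose (1.25 ± 0.24).

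Across animals, the genes that resembled the metallothioneins most were looked for among 9865 genes with at least 100 normalised counts on average in each table, by Pearson r of group-centred log2 levels over 30 libraries, given as a description with no test. For Mt1 these were Mt2 (0.98), the acute phase gene Lcn2 (0.71), Rps6ka4 (0.70), Sertad3 (0.68), Borcs6 (0.67), Tmed2 (0.67), Cst3 (0.66) and Tpd52 (0.66). In the 14 libraries of PND1 and PND21 alone Lcn2 had r = 0.79 with Mt1, Tmed2 0.18 and Tpd52 -0.04, so some of these values come from PND42. For Mt2 they were Mt1, Cst3 (0.76), Lcn2 (0.75), Znhit2 (0.74), Cyba (0.72), Cib1 (0.71), Litaf (0.71) and Borcs6 (0.71), of which Cyba had 0.17 in the 14 younger libraries. Lcn2, the gene of the iron-siderophore binding protein lipocalin 2, had 3273 normalised counts in PND42 exposed male replicate 1, the animal with the highest Mt1. It had 128 to 286 in the other exposed males and 69 to 446 in control males. Acute phase genes as a list had a median r of 0.35 with Mt1, with 5 of 20 above 0.5, where 118 of all 9865 genes were. Of those 5, Lcn2 (0.79) and Hpx (0.59) were also above 0.5 in the 14 younger libraries, and Saa1 (-0.09), Saa2 (0.15) and Saa3 (0.30) were not. PND42 exposed male replicate 1 had 24966 normalised counts of Saa1 and 18289 of Saa2, against at most 2484 and 459 in the other exposed males. Control males reached 7238 of Saa1 (unnumbered b, with low Mt1) and 1126 of Saa2 (replicate 1). Among exposed males Fgg, Saa4 and Steap4 were higher in an animal other than replicate 1, and the rest of the acute phase list was highest in replicate 1. The part of inflammation in its metallothionein level was not tested. The 6 MTF1 targets had a median of -0.09, glucocorticoid genes -0.17 and heat shock genes -0.23. Slc30a1 itself had r = 0.23 with Mt1 over 30 libraries, 0.77 in the 14 of PND1 and PND21 and 0.11 in the 16 of PND42.

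Mtf1 had other neighbours in this space, namely Pinx1 (0.79), Sarnp (0.78), Pprc1 (0.78), Ccdc174 (0.77), Ppan (0.77), Onecut2 (0.77), Mphosph8 (0.76) and Usp36 (0.76). In the ranking by likeness to Mtf1, Mt2 was number 5112 and Mt1 number 5383 of 9865. Libraries share depth and RNA quality across all genes, so such values also carry what a library has in common.

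Along the chromosome, neighbours of the metallothionein pair moved in both directions, at shares near those of all genes. Of the 4 nearest listed genes on each side, 0 of 8 were called with exposure at PND1 or PND21, and in PND42 females 1 of 6 rose (Bbs2, 1.22 ± 0.45) and 1 fell (Herpud1, -0.62 ± 0.23), beside 18.9% and 21.4% of all genes. With age in controls Nup93 (-1.20 ± 0.20) and Nudt21 (-0.76 ± 0.12) fell as Mt1 and Mt2 did, while Herpud1 (1.45 ± 0.33), Gm15889 (1.97 ± 0.55) and Gm15890 (1.75 ± 0.63) rose, 3 higher and 2 lower of 8 beside 27.7% and 28.3% of all genes. Over 30 libraries Nup93 had the highest group-centred r with Mt1 of the 6 neighbours in all tables, 0.39. At the Mtf1 locus Inpp5b (0.76 ± 0.14), Gm12915 (1.45 ± 0.56) and 1110065P20Rik (0.75 ± 0.15) rose with age as Mtf1 did, and Fhl3 (-3.23 ± 0.34) and Cdca8 (-3.47 ± 0.43) fell. With exposure 0 of 8 were called there at PND1 or PND21. In PND42 females 0 of 7 rose and 3 fell, beside 18.9% and 21.4% of all genes. These were Yrdc (-1.03 ± 0.21), Sf3a3 (-0.52 ± 0.14) and 1110065P20Rik (-1.01 ± 0.29). 1110065P20Rik lies on the opposite strand and shares 8.09% of the exon bases of Mtf1, and its part in the Mtf1 counts was not tested.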

How the data were processed

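Per the submitters' processing notes, FastQC, STAR and featureCounts were used with build mm10; their versions are not stated there. The deposited tables hold log2 values that the authors made as log2(count divided by a size factor, plus 1). Whole reads came back for 100% of values within 0.1. The authors' own log2 fold changes and the deposited p-value columns at PND1 and PND21 are quoted only as such, the standard errors and test statistics that the authors deposited beside them are scores of that test, and the deposited mean signal of each gene is the mean of its normalised counts over the libraries scaled together. Limma 3.58.1 (R 4.3.3, trend and robust) was fitted to the deposited log2 values of genes with at least 10 normalised counts in as many libraries as the smallest group. Tests were two-sided with Benjamini-Hochberg adjustment and a threshold of 0.05, in separate fits for PND1 and PND21, 1 fit of PND42 and 1 of the 14 younger libraries. The method was tested on data simulated from the PND1 and PND21 groups only. The simulated spread was well below that of Mt1 and Mt2 at PND21 and PND42, so the simulation does not cover their detection at those ages. Single-end reads were 125 bases long and read totals bound counting error, which is small at these levels. Identifiers of 14238 of 14259 genes matched GENCODE vM21, and site sequences are from RefSeq GRCm38.p6. The members, lists and naming rule were chosen with earlier results of these data known. The naming rule took the 3 genes everywhere, up to 4 called members of each list or else the 2 of lowest p, the 8 most alike genes and the 4 nearest neighbours on each side. Alternatives were scaling, pseudocount, filter, limma voom, other libraries in the fit, a replicate block and each library left out. Further settings were chosen after seeing the data, namely numbered females alone, a mean without 1 exposed male and 2 scalings of the relation between Mt1 and Mt2. The unnumbered PND42 control female bears the tag of another animal, control replicate 1 at PND21, and which mouse it was is uncertain.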

Additional observations from a re-analysis of the deposited data

Results flagged for a closer look

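In the exposed PND42 males, replicate 1 stood far from the other 3 animals in both metallothioneins. Mt1 was at 75232.5 normalised counts there and the next highest at 5498, a gap of 0.948 of the group's range. Mt2 was at 34195 and the next highest at 2093, a gap of 0.963. In the exposed PND42 females, replicate 3 had 833.8 normalised counts of Mtf1 and the next highest 665, a gap of 0.836 of the range. The limit for 4 animals is 0.829, which chance passes in about 1 of 20 groups if values are normally distributed. In all, 42 combinations of group and measure were examined, on normalised counts and on log2 levels. All values flagged were normalised counts, and no log2 level passed the limit.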

How the results depend on the processing

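The 3 age calls in controls were the only calls among 27 tests of the 3 genes. Apart from single libraries left out, 221 alternative values kept their direction and side of the threshold, 4 changed sign, 1 gained a call and 1 lost it; the cause of these changes was not tested. Total-read scaling gave Mtf1 0.12 in PND21 against PND1 controls, -0.28 in exposed livers and 0.088 for exposure in PND42 males, where trimmed-mean scaling gave 0.0158. It moved the all-gene median to -0.50, -0.33 and 0.08 in those comparisons. Replicate numbers did not pair animals (correlations of deviations from -0.14 to 0.27), so the numbers are only names. With a replicate block PND42 females gave -0.52 for Mt1 and -1.27 for Mt2 (limma adjusted p = 0.0394). No paired analysis was possible because of too few common numbers for PND42 males (fewer than 2).

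With each library left out in turn, exposure at PND1 gave Mt1 -0.28 to 0.0206, and at PND21 Mt2 -0.33 to 1.04. In PND42 females Mt1 ran from -0.66 to 1.04 and Mt2 from -1.37 to 0.39, and in males Mt2 from -0.0137 to 1.83 and Mtf1 from -0.13 to 0.16. PND21 against PND1 controls gave Mt1 -1.85 to -0.90 and Mt2 -2.18 to -0.80, and exposed livers gave Mt1 -1.09 to -0.43 and Mtf1 -0.0914 to 0.22. The PND21 minus PND1 exposure effect of Mt2 ran from -0.033 to 1.34, and male minus female control Mt2 from -1.72 to 0.15. Mtf1 kept its sign and its call in PND21 against PND1 controls, from 0.55 to 0.69.

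Counts of all genes called moved by over 1.5 times at PND21 exposure (5, against 0 with voom, 2 without trend, 8 with the block, 50 in the 14-library fit and 0 to 14 without single libraries). They also moved in the age interaction (2, against 0 to 12) and in the sex comparison of controls (907, against 2110 by total reads and 371 to 1979 without single libraries). The sex interaction gave 1036, against 492 to 1929 without single libraries, exposure at PND1 0 against up to 5, and exposure in PND42 males 0 against up to 27 without unnumbered control a. In PND42 females, dropping other groups from the fit gave 14 acute phase genes lower and 2 higher, against 9 and 0, as did the block, and 1 transporter higher, against 0. With single libraries left out, PND21 against PND1 controls ran from -0.304 to 0.154 for Slc39a10 and from -0.144 to 0.168 for Selenow, which gave 0.0218 under the block. At PND42 the lowest Mt2 and Mt1 values were 142 and 524 normalised counts in 1 control male, and animals, not reads, limit the precision there.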
